A study of Mus musculus with 2 samples.

Results

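The suprabasal squamous keratins described here are 8 genes, *Krt1*, *Krt4*, *Krt6a*, *Krt6b*, *Krt10*, *Krt13*, *Krt16* and *Krt17*, of the 19550 genes measured in single cells of the mouse esophagus, gastroesophageal squamocolumnar junction (GE-SCJ) and stomach. They form a list of gene names with no threshold on a measured value, drawn up with earlier results of these data known, and each was followed through the cell classes that the authors assigned, by region and stage. Cells came from C57BL/6 wild-type mice at embryonic day 15 (E15, 6 mice), E19 (2 mice), day 2 after birth (pup, 2 mice) and 8 weeks (adult, 3 mice). These mouse numbers are those of the series description, whereas the paper's methods speak of cells combined from 3 mice. The mice of a stage were pooled by tissue, tagged with an oligonucleotide for each tissue and stage, and run as 1 library, so a tissue at a stage is 1 pooled sample with no replicate and no test between groups exists. All groups carried the same genotype and no treatment, and no adult stomach cells were assigned.

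Keratins are the intermediate filament proteins of epithelia, and a filament forms only when an acidic (type I) keratin pairs with a basic (type II) keratin. In a stratified squamous epithelium the dividing basal cells carry *Krt5*, *Krt14* and *Krt15*, and the cells that leave the basal layer switch to suprabasal partners. *Krt4* (type II) and *Krt13* (type I) are known as the pair of the esophagus and other internal mucosa, *Krt1* (type II) and *Krt10* (type I) as the pair of cornifying epidermis, and *Krt6a*, *Krt6b* (type II), *Krt16* and *Krt17* (type I) as keratins of wounded or fast renewing epithelium and of hair follicles.

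The type II members lie together on chromosome 15 and the type I members on chromosome 11, in GRCm38, all on the minus strand. *Krt6b* (ENSMUSG00000023041) spans chr15:101676023-101680287, *Krt6a* (ENSMUSG00000058354) chr15:101689910-101694307, *Krt1* (ENSMUSG00000046834) chr15:101845426-101850794 and *Krt4* (ENSMUSG00000059668) chr15:101918535-101924735, with 9 exons each. *Krt10* (ENSMUSG00000019761) spans chr11:99385254-99389364, *Krt13* (ENSMUSG00000044041) chr11:100117327-100121566, *Krt16* (ENSMUSG00000053797) chr11:100246091-100248902 and *Krt17* (ENSMUSG00000035557) chr11:100256217-100261029, with 8 exons each. *Krt6a* and *Krt6b* are 9.62 kb apart and *Krt16* and *Krt17* 7.32 kb apart, whereas *Krt1* and *Krt4* are 67.7 kb apart and *Krt10* and *Krt13* 728 kb apart.

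*Krt6a* and *Krt6b* are near copies, which bears on how their counts can be told apart. Their coding sequences (1662 and 1665 bases in the GENCODE annotation of GRCm38) differed at 37 of 1662 aligned bases, and 543 of 1511 windows of 120 bases held no difference at all. The 120 coding bases with the most differences between them, coding bases 751 to 870, are shown with the differing bases in capitals.
Krt6a: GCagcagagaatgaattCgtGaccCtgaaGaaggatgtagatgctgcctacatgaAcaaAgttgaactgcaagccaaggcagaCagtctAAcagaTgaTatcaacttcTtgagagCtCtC
Krt6b: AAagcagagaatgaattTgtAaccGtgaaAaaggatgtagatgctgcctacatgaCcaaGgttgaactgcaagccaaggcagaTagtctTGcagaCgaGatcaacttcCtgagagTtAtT
Even this stretch differed at only 17 bases. The library tagged the 3′ ends of transcripts, where the last 300 bases of both genes were 70.3% identical, so most reads there can be placed. Reads that match both genes cannot, and their effect on the counts of either gene was not tested. The remaining pairs of members of the same type were 55.6% to 71.7% identical over the coding sequence, and *Krt16* was 83.4% identical to basal *Krt14*.

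For 2 of the 8 members, *Krt10* and *Krt13*, a RefSeq promoter for GRCm38.p6 had its start exactly at the GENCODE gene start. Members without such a match were left out, whether or not RefSeq lists a promoter for them. The 250 bases before the start are shown because these 2 type I genes of the epidermal and the mucosal pair had very different patterns in the squamous cells. Capitals mark matches on either strand to TATAAA (bound by the general transcription machinery), CACCC (the core bound by Krüppel-like factors) and TGANTCA. The last is a looser form of the AP-1 site, which has C or G where N allows any base.
Krt10, chr11:99389365-99389614, minus strand: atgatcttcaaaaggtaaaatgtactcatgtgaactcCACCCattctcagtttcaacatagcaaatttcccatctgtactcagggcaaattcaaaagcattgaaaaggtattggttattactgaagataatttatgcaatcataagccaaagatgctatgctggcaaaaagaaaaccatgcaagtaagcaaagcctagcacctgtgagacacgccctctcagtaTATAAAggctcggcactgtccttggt
Krt13, chr11:100121567-100121816, minus strand: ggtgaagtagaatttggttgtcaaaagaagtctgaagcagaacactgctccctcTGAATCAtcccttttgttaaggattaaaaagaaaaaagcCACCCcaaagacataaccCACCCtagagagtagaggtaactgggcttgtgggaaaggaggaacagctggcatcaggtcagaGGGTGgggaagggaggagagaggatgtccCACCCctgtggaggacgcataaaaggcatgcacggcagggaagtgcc
The *Krt10* window held 1 match to TATAAA and 1 to CACCC, and the *Krt13* window held 4 matches to CACCC and 1 to TGANTCA. That match, TGAATCA, has A in the middle and so is not the AP-1 site itself. Of 32851 promoter windows of this length, 12.4% held TATAAA, 52.0% CACCC and 6.75% TGANTCA, so a match to CACCC is common. A match is a description of these letters only.

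The data held 7808 cells, with no barcode occurring more than 1 time, and a median of 10424.5 unique molecular identifiers (UMIs, counted transcript molecules) per cell. The first squamous label (Squamous Epithelial) had 690 cells, with 64, 120, 56 and 232 cells in the esophagus and 47, 30, 44 and 86 in the GE-SCJ at E15, E19, pup and adult, and 470147 to 3209407 UMIs in a group. These cells carried the defining squamous genes *Trp63* (212 CPM, the counts of a gene in 1000000 UMIs of the group), *Krt5* (1188 CPM), *Col17a1* (182 CPM) and *Lgals7* (5758 CPM). The second squamous label (Squamous Epithelial-2) had 40 cells, 29 of them in the pup esophagus. Over these 40 cells *Trp63* and *Col17a1* were at 0 CPM, *Krt5* at 12.6 CPM and *Lgals7* at 36.0 CPM, while *Krt15* was at 1439 CPM. Cells that leave the basal layer also switch from *Krt5*, so low basal markers alone do not decide whether the name holds. Of the 4 mesothelial markers in this second label, *Msln* was at 881 CPM, *Upk3b* at 5.40 CPM and *Wt1* and *Lrrn4* at 0. The groups differed in their content of columnar markers: the summed level of 7 such genes was 3639 CPM in the 30 squamous cells of the E19 GE-SCJ, of which 14 were led by squamous markers, and 557 to 1978 CPM in the other GE-SCJ groups. In bulk sums of this kind, fewer cells with a keratin and less keratin per cell cannot be told apart, and cells per group are therefore given as well.

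*Krt4* and *Krt13* were the most abundant of the 8 keratins in 8 of the 9 squamous groups of at least 20 cells, and both were highest in the adult. Esophageal squamous cells of E15 had 1198 CPM *Krt4* (95% Poisson interval 1131 to 1268), those of E19 had 5289.9 CPM (5180 to 5402), pup cells 876 CPM (801 to 956) and adult cells 18749.6 CPM (18600 to 18900). *Krt13* was at 1772, 8054, 1456 and 27514 CPM in the same groups. Both genes thus had their highest esophageal level in the adult and their lowest in the first label of the pup. A sum over cells weights deep cells most, and single-cell CPM averaged over the adult cells gave 9232 CPM for *Krt4* and 13880.0 CPM for *Krt13*, also the highest of the 4 stages.

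From E15 over E19 and pup to adult, GE-SCJ cells had 510 (464 to 559), 2248, 1128 and 9981 (9824 to 10139) CPM *Krt4* and 2368, 5794, 2565 and 17870.2 CPM *Krt13*. The order of the *Krt4* levels over the 9 groups ran from the adult esophagus through the adult GE-SCJ, the E19 esophagus and the E19 GE-SCJ to a cluster of neighbours that overlapped within counting error, namely the second label of the pup (1302 CPM, 1193 to 1418), the E15 esophagus and the pup GE-SCJ (1048 to 1212). For *Krt13* the closest neighbours were the pup and the E15 GE-SCJ, whose log2 ratio of 0.12 (0.023 to 0.21) still lay above 0. Outside the squamous labels, 46 groups of at least 20 cells had a median of 39.5 CPM *Krt4* and 70.7 CPM *Krt13*, and at most 530 and 602 CPM, both in 20 columnar-labelled cells of the E19 esophagus.

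**Figure D1:**
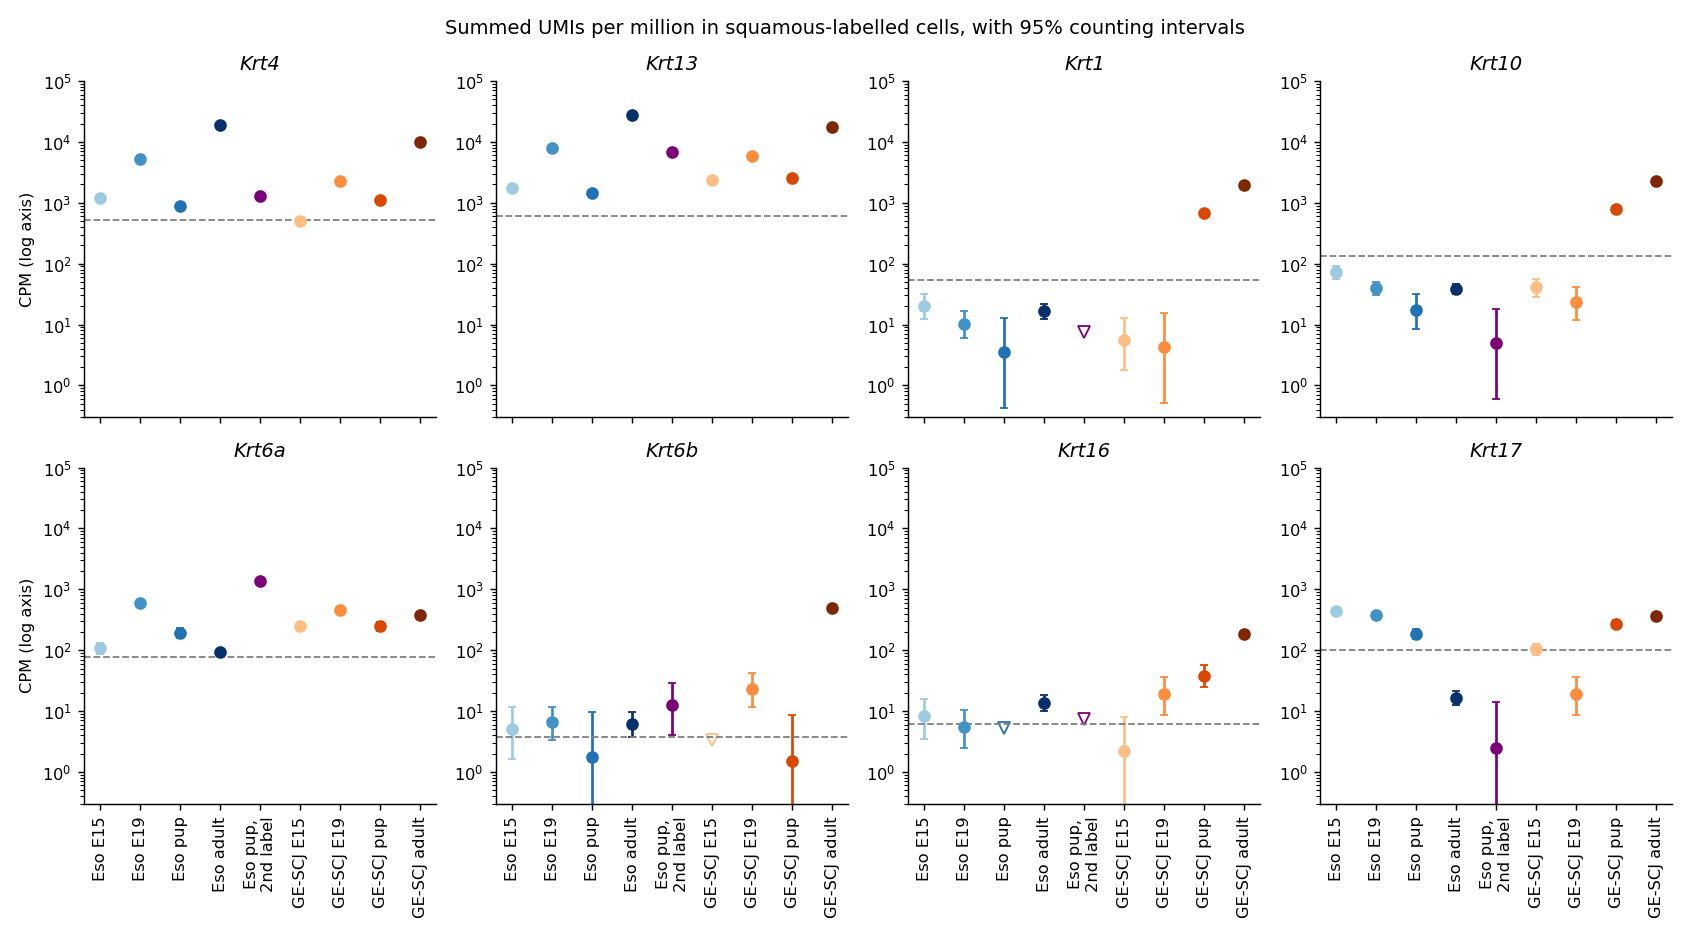
Level of each of the 8 keratins in CPM (log axis) by stage in squamous cells of the esophagus and the GE-SCJ and in the second squamous label of the pup esophagus, with 95% Poisson intervals and 1 pooled sample a point. The dashed line is the highest level in 46 groups of other cell classes and an open triangle marks 0 UMIs, drawn at the level of 3 counts. *Krt4* and *Krt13* peak in the adult in both regions, *Krt1* and *Krt10* stand above the dashed line only in the pup and adult GE-SCJ, and *Krt17* is at 16.5 CPM in the adult esophagus and 369 CPM in the adult GE-SCJ.

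The mucosal pair was higher at E19 than at E15 in both regions. A ratio was formed from the summed UMIs with 1 UMI added to each sum, for genes with at least 100 UMIs in the 2 groups together, and a gene counted as different when it was past 2-fold. *Krt4* (log2 ratio 2.14, 95% interval 2.05 to 2.23), *Krt13* (2.18, 2.11 to 2.26) and *Krt6a* (2.49, 2.20 to 2.79) were higher at E19, which is 3 of the 5 members with enough UMIs, at ranks 37, 35 and 27 of the genes measured this way, against 3.48% of 3883 genes past 2-fold. *Krt10* was at -0.86 and *Krt17* at -0.19, both short of 2-fold. In the GE-SCJ 2 of 4 members were higher at E19, *Krt4* (2.14) and *Krt13* (1.29), against 4.96% of 2016 genes, and 1 of the 4, *Krt17*, was lower (-2.30, from 94 UMIs to 9 UMIs), against 4.86% of genes in that direction. *Krt17* reached 100 UMIs through the E15 group and could not be called higher.

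The pup was lower than E19 in the first squamous label of the esophagus. All 4 members with enough UMIs were past 2-fold, with log2 ratios of -2.59 for *Krt4*, -2.47 for *Krt13*, -1.64 for *Krt6a* and -1.04 for *Krt17*, against 10.2% of 3077 genes. A single cell held 56.4% of the *Krt4* UMIs of the pup esophagus, and the level without the cells whose nearest neighbours were mostly prenatal was 376.5 CPM. With mitochondrial, ribosomal protein and hemoglobin genes left out of the library size, *Krt4* had 7849 CPM in the E19 cells and 1458 CPM in those of the pup, and *Krt17* was at -0.87, no longer past 2-fold. The 29 cells of the second label, which held 2778 *Krt13* UMIs against 831 in the 56 cells of the first, were not part of this comparison. With both labels joined at both stages, *Krt4* (-2.32), *Krt13* (-1.19) and *Krt17* (-1.75) were still lower in the pup, whereas *Krt6a* was level, at 675 CPM against 659 CPM (0.037).

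From E19 to the adult esophagus the direction divided the members. *Krt4* was 3.54-fold higher (log2 1.83, 1.79 to 1.86) and *Krt13* 3.42-fold higher (log2 1.77, 1.75 to 1.80), 2 of 5 members with enough UMIs against 8.57% of 5706 genes. With the mean of single-cell CPM *Krt4* was at 0.95, short of 2-fold. *Krt6a* was 6.55-fold lower (log2 -2.71, -2.90 to -2.52) and *Krt17* 22.8-fold lower (log2 -4.51, -4.94 to -4.11), 2 of the same 5 members against 8.59% of genes lower by at least 2-fold. *Krt17*, with 53 UMIs in the adult, reached 100 UMIs through the E19 group and could not be called higher. *Krt10* was level between the groups, at 39.8 CPM and 38.3 CPM (log2 -0.07, -0.51 to 0.39). *Krt1*, *Krt6b* and *Krt16* had fewer than 100 UMIs over both groups.

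Other squamous genes give the setting of the adult esophagus. Of 17 measured squamous differentiation genes 15 were higher than at E19 and none lower, against 8.57% of 5706 genes higher. Their median log2 ratio was 4.74 against -0.20 over all genes. *Sprr1b*, *Rptn*, *Calm4*, *Dsg1a*, *Crct1* and *Lor* had 0 to 34 UMIs at E19. They passed the limit on UMIs over both groups through the adult and could not be called lower. The count and the median are therefore a description only. *Crct1* was at 2905 CPM against 10.3 CPM, *Rptn* at 637 against 2.41 CPM, *Calm4* at 937 against 3.62 CPM, and *Sprr1b* at 168 CPM against 0 UMIs, where 3 counts would be 1.81 CPM. Of 8 desmosomal and adaptor genes, which anchor keratin filaments at the cell surface, 3 were higher (*Dsc3*, 158 against 19.9 CPM, *Pkp3* and *Pkp1*). The other suprabasal keratins *Krt78* (123 against 10.9 CPM) and *Krt80* (109 against 29.6 CPM) were both higher.

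The keratins of other compartments went another way. Of 5 simple keratins, the filaments of single-layered epithelium, 4 were lower in the adult esophagus, against 8.59% of 5706 genes lower by at least 2-fold. The log2 ratio was -6.17 for *Krt7* (10.3 against 763 CPM), -4.98 for *Krt19*, -3.21 for *Krt8* and -2.02 for *Krt18*, and *Krt23* was higher. *Krt7*, with 33 UMIs in the adult, could not be called higher, and *Krt23*, with 22 UMIs at E19, could not be called lower. The summed level of 7 columnar markers, which include *Krt8* and *Krt18*, was 1942 CPM at E19 and 769.6 CPM in the adult, and its part in these values was not tested. The basal keratins were divided, with *Krt14* at 642 against 171 CPM, *Krt15* at 1578 against 5788 CPM and *Krt5* at 1312 against 1129.7 CPM. Among 14 squamous regulators, *Klf4*, *Grhl1* and *Ovol1* were higher, *Elf3* was lower, and the median was -0.17. Of 4 measured alarm genes often listed with *Krt6*, *Krt16* and *Krt17*, *S100a9* (129 against 3.62 CPM), *S100a8* and *Sprr1b* were higher in the adult. *S100a9*, *S100a8* and *Sprr1b* had 0 to 9 UMIs at E19. These genes passed the limit on UMIs over both groups through the adult and could not be called lower. *Krt6a* and *Krt17* were lower in the adult, but *Krt17*, with 53 UMIs there, could not be called higher. The opposite directions are therefore a description only.

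**Figure D2:**
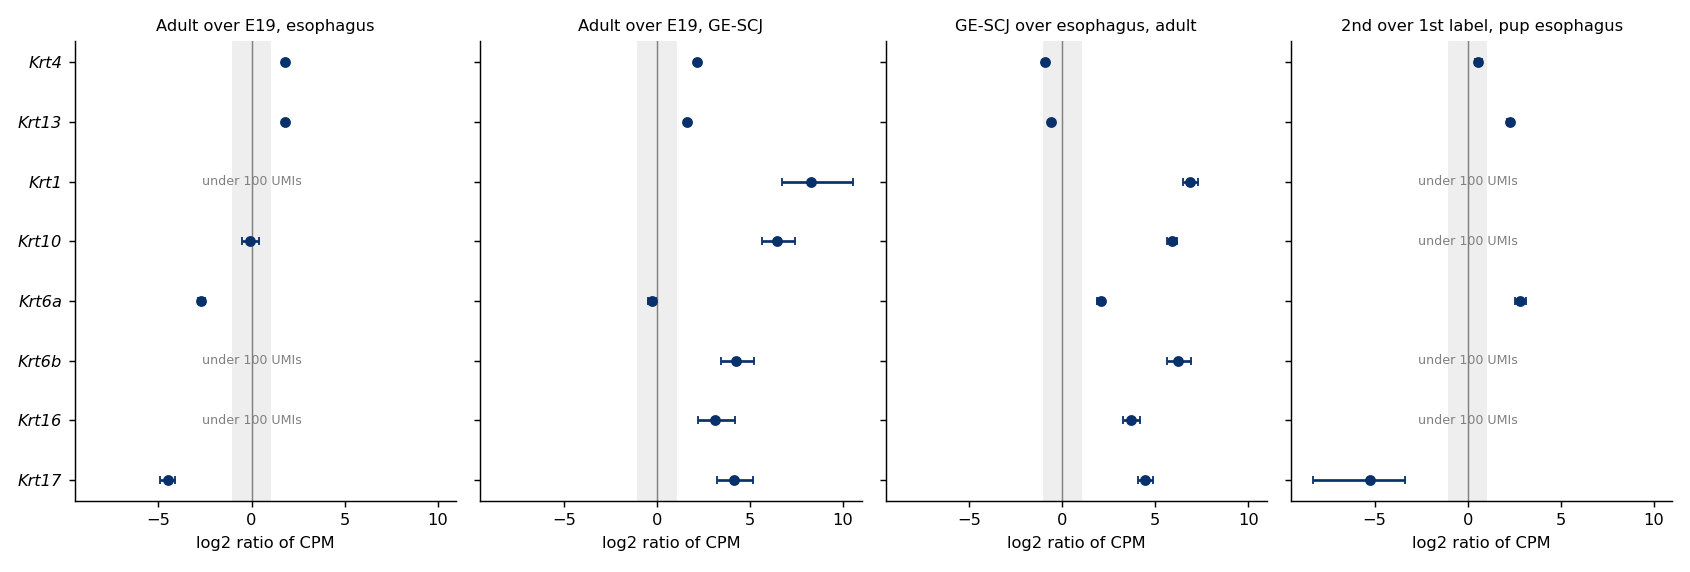
Log2 ratio of each keratin between 2 groups of squamous cells, with the exact 95% interval for counting error, for adult over E19 in both regions, GE-SCJ over esophagus in the adult, and the second over the first label of the pup. The grey band holds differences of less than 2-fold, and genes with under 100 UMIs over both groups have no point. *Krt17* lies at -4.51 for adult over E19 in the esophagus and at 4.12 in the GE-SCJ, and *Krt1* has the highest value for GE-SCJ over esophagus in the adult, 6.87.

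At the GE-SCJ all 8 members had enough UMIs for the same comparison, and 7 of the 8 were higher in the adult than at E19, against 11.6% of 2567 genes. *Krt1*, *Krt6b*, *Krt10*, *Krt16* and *Krt17* reached 100 UMIs through the adult group, with 2 to 11 UMIs at E19. Members that entered this way could not be called lower, so the count and the ranks are a description only. The epidermal pair led, with log2 ratios of 8.27 (6.72 to 10.55) for *Krt1*, which had 2 UMIs at E19, and 6.47 (5.66 to 7.43) for *Krt10*, ranks 2 and 15 of all genes measured. *Krt6b* (4.27), *Krt17* (4.12), *Krt16* (3.10), *Krt4* (2.15) and *Krt13* (1.62) followed, and *Krt6a* was at -0.25 (-0.47 to -0.01). With the mean of single-cell CPM *Krt13* was at 0.90, short of 2-fold. The E19 group was 30 cells with a high level of columnar markers, and in the cells led by squamous markers alone *Krt1* was at 0 against 1998 CPM, *Krt10* at 30.5 against 2297 CPM and *Krt17* at 34.9 against 375 CPM.

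The genes around them at the GE-SCJ resembled the esophagus in part. Of 16 differentiation genes 15 were higher in the adult, against 11.6% of 2567 genes, with a median of 5.36 against -0.16 over all genes. They were led by *Lor* (2039.8 against 8.51 CPM), *Calm4*, *Cnfn* and *Krtdap* (19461 against 181 CPM). *Lor*, *Calm4*, *Cnfn*, *Crct1*, *Rptn*, *Dsg1a*, *Tgm3*, *Spink5* and *Sbsn* had 0 to 27 UMIs at E19. These genes passed the limit on UMIs over both groups through the adult and could not be called lower. This count and median are also a description only. Of 8 desmosomal and adaptor genes 6 were higher, *Dsc3* most (220.1 against 10.6 CPM). *Krt14* was at 1480.1 against 164 CPM, *Krt5* at 1584 against 757 CPM and *Krt15* at 986 against 3097 CPM. Of 5 simple keratins 4 were lower, *Krt8* most (72.3 against 2057 CPM), against 10.3% of 2567 genes lower by at least 2-fold. *Krt8* and *Krt18* are also columnar markers. Of 13 regulators 3 were higher, among them *Klf4* (446 against 138 CPM) and *Trp63* (246 against 113 CPM), and 3 were lower, among them *Elf3* (34.9 against 149 CPM).

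Among squamous groups of at least 20 cells, *Krt1* and *Krt10* were highest in the postnatal GE-SCJ. *Krt1* was at 20.4, 10.3, 3.50 and 16.5 CPM in the esophagus at E15, E19, pup and adult, and at 5.53, 4.25, 668 and 1970.1 CPM in the GE-SCJ. *Krt10* was at 72.3, 39.8, 17.5 and 38.3 CPM in the esophagus and at 40.9, 23.4, 803 and 2264 CPM in the GE-SCJ. The 46 groups of other cell classes reached 54.5 CPM for *Krt1* and 132 CPM for *Krt10*, both in immune-labelled cells of the E19 stomach and mostly from 1 cell, and the next highest groups were at 20.1 and 58.3 CPM. *Krt1* in the E15 esophagus was close to that second level, and *Krt10* there lay above it, at 72.3 CPM (56.4 to 91.2), but was at 34.9 CPM without the cell with the most.

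Part of this difference was already present in the pup. Of 6 members with enough UMIs in the GE-SCJ, 3 were higher in the pup, *Krt1* (6.71, rank 1 of all genes measured), *Krt10* (4.98, rank 2) and *Krt17* (3.67, rank 5), against 4.31% of 1440 genes, and *Krt13* was lower (-1.18), against 9.24% of genes. The 3 higher members had 2 to 11 UMIs at E19 and reached 100 UMIs through the pup group, so they could not be called lower. *Krt4* was at -0.995 and *Krt6a* at -0.88, short of 2-fold, but few cells decided this. Without the cell with the most UMIs of the gene in each group *Krt4* was at -2.11 and *Krt6a* at -1.28, both past 2-fold. *Krt13* was at -0.93, short of 2-fold, when mitochondrial, ribosomal protein and hemoglobin UMIs were not counted as depth.

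A few cells carried most of the *Krt1* and *Krt10* message. In the pup GE-SCJ 5 of 44 cells had at least 20 UMIs of *Krt1* and *Krt10* together and held 94.8% of them, and the cell with most held 189 of 438 *Krt1* UMIs and 254 of 526 *Krt10* UMIs. In the adult GE-SCJ 26 of 86 cells reached 20 UMIs and held 97.6%, and the deepest of them, with 74388 UMIs in all, held 35.9% of *Krt1* and 36.3% of *Krt10*. Without that cell the adult levels were 1327 CPM *Krt1* and 1514 CPM *Krt10*. No prenatal GE-SCJ cell reached 20 UMIs of the pair, and in the esophagus 1 of 64 cells at E15, which held 37 of 71 *Krt10* UMIs, and 1 of 232 adult cells did.

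Summed over cells, the 2 partners of the pair were found in similar amounts. *Krt1* made up 45.4% (95% Clopper-Pearson interval 42.3% to 48.6%) of the *Krt1* and *Krt10* UMIs in the pup GE-SCJ and 46.5% (45.3% to 47.7%) in the adult. In single cells with at least 20 UMIs of the pair, the *Krt1* share ran from 42.7% to 58.2% over 5 pup cells. Over 26 adult cells it ran from 0% to 100%, with a median of 46.4% and quartiles of 32.0% and 67.7%. With each cell thinned to 5000 UMIs, both genes were seen in 6 of 41 pup cells (14.6%) and in 20 of 67 adult cells (29.9%, 19.3% to 42.3%), where 19 shallower cells were left out. In stromal cells, which should lack both, the share was 0.238% at the same depth, and in the adult esophagus it was 1.75%. Before thinning the median depth was 12028.5 UMIs in the first squamous label and 8940.0 UMIs in the stromal label.

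At a cutoff of 20 UMIs, most of the few pup cells with the epidermal pair fell short of the mucosal pair, whereas most adult cells reached both. Median depth was 16397 UMIs in these 5 pup cells and 26398 UMIs in the 26 adult cells. At 5000 UMIs a cell, *Krt13* was seen in 6 of 12 pup and 32 of 36 adult cells with *Krt10*. Over all cells it was seen in 22 of 41 and 58 of 67. Of the 5 pup cells 4 had fewer than 20 UMIs of *Krt4* and *Krt13*, 1 of them with 18. The 5 together had basal keratins (*Krt5*, *Krt14* and *Krt15*) at 490 CPM. Of the 26 adult cells 20 had at least 20 UMIs of both pairs, and these held 85.1% of the *Krt1* and *Krt10* UMIs and 58.5% of the *Krt4* and *Krt13* UMIs of the adult GE-SCJ. The other 6 had the epidermal pair alone, with a median of 7832 UMIs and basal keratins at 5323 CPM. A further 25 adult cells had the mucosal pair alone and 35 had neither.

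**Figure D3:**
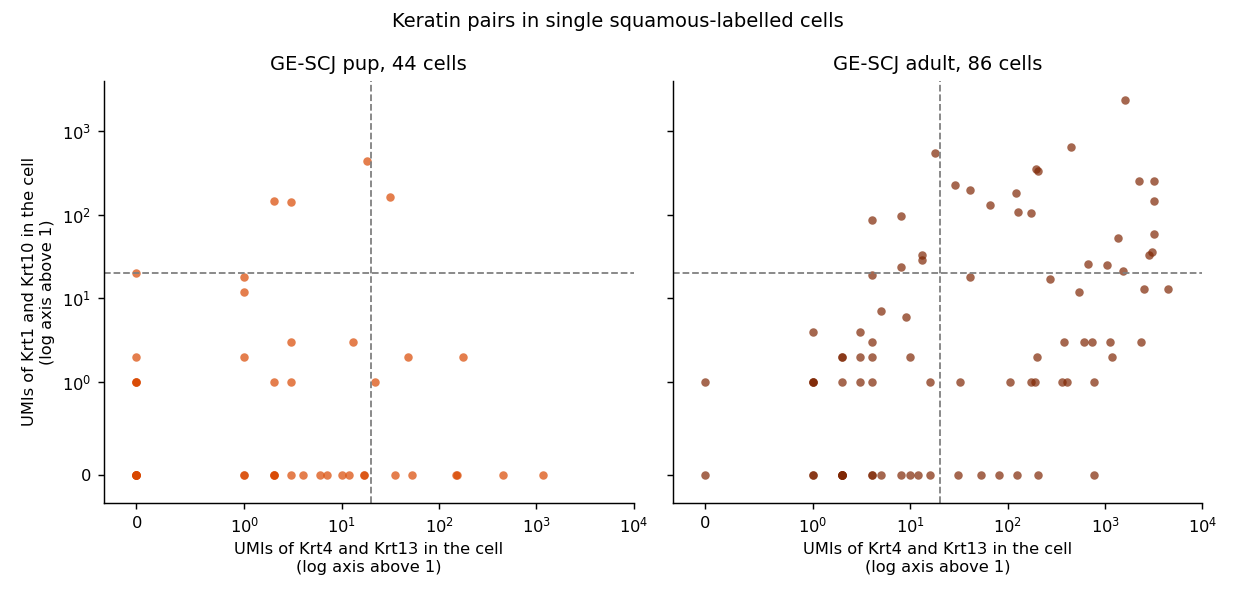
UMIs of *Krt4* and *Krt13* (horizontal axis) against UMIs of *Krt1* and *Krt10* (vertical axis) in each of the 44 pup and 86 adult squamous cells of the GE-SCJ, 1 point a cell, on axes that are linear up to 1 and logarithmic above, with dashed lines at 20 UMIs. Of the adult cells 20 lie on or past both lines, against 1 of the pup cells, and 4 pup cells and 6 adult cells lie on or past the line of the epidermal pair alone.

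Cells of the adult GE-SCJ sorted by these pairs also differed in other genes, which is a description because the cells were split by the members' own counts. *Krtdap* was at 28191 CPM in the 26 cells with the epidermal pair, 19523 CPM in the 25 with the mucosal pair alone and 787 CPM in the 35 with neither. The cornified envelope gene *Lor* was at 3691 and 1028 CPM in the first 2 sets, and *Spink5*, a protease inhibitor of the upper layers, at 2909 and 973 CPM. *Tgm3* went the other way, at 348 and 701 CPM, as did *Krt16* (90.7 and 413 CPM), *Krt6a* (296 and 732 CPM) and *Krt17* (154 and 504 CPM). Median depth was 26398 UMIs in the first set and 21924 UMIs in the second, and its part in these differences was not tested.

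The adult GE-SCJ differed from the adult esophagus in most of these keratins. Of the 8 members 6 were higher in the GE-SCJ, against 1.45% of 5255 genes, and the log2 ratio was 6.87 (6.48 to 7.29) for *Krt1*, the highest of all genes measured, 6.23 for *Krt6b* (rank 2), 5.87 for *Krt10* (rank 4), 4.46 for *Krt17* (rank 7), 3.70 for *Krt16* (rank 11) and 2.05 for *Krt6a* (rank 24). Of these, *Krt1*, *Krt6b*, *Krt16* and *Krt17* reached 100 UMIs through the GE-SCJ, with 20 to 53 UMIs in the esophagus, and could not be called lower. *Krt4* and *Krt13* were lower in the GE-SCJ but short of 2-fold, at -0.91 (-0.94 to -0.88) and -0.62 (-0.64 to -0.60). In the pup 2 of 6 members were past 2-fold, *Krt1* (6.99, rank 1) and *Krt10* (5.38, rank 4), against 5.99% of 1470 genes. Both also reached 100 UMIs through the GE-SCJ, with 2 and 10 UMIs in the esophagus. At E19 2 of 4 members were lower in the GE-SCJ, *Krt17* (-4.18) and *Krt4* (-1.23, or -0.84 with the mean of single-cell CPM), against 3.63% of genes. *Krt17* reached 100 UMIs through the E19 esophagus, with 9 UMIs in the E19 GE-SCJ, and could not be called higher. Of the 30 squamous cells of the E19 GE-SCJ 14 were led by squamous markers. At E15 2 of 5 were lower, *Krt17* (-2.06) and *Krt4* (-1.23), against 2.70% of genes, and *Krt6a* (1.21) was higher, against 1.69% of genes. A single cell held 45.1% of the *Krt6a* UMIs of the E15 GE-SCJ, and *Krt6a* was at 0.73 without the cell with the most in each group and at 0.30 in cells led by squamous markers.

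Differentiation genes were divided between the adult regions. Of 17 such genes 5 were at least 2-fold lower in the GE-SCJ, against 3.22% of all genes, and none was 2-fold higher, although *Mt4* (0.84, 14237 against 7926 CPM), *Lypd3* (0.63) and *Spink5* (0.62) had higher levels there. The list had a median of -0.58 against -0.05 over all genes, and the lower genes were led by *Rptn* (115 against 637 CPM), *Crct1* (622 against 2905 CPM), *Tgm3* and *Sprr1b*. Of 14 regulators and of 8 desmosomal and adaptor genes none was past 2-fold. Among the other keratins, *Krt7* was at 279 against 10.3 CPM, *Krt14* at 1480.1 against 642 CPM, *Krt23* at 167 against 54.8 CPM and *Krt19* at 134 against 47.0 CPM, and *Krt78* was lower (38.7 against 123 CPM). Of the 4 alarm genes 3 were lower in the GE-SCJ, *S100a9* at 31.6 against 129 CPM, *Sprr1b* and *S100a8*. *Krt6a*, *Krt6b*, *Krt16* and *Krt17* were higher there. *S100a9* and *S100a8* had 49 and 15 UMIs in the GE-SCJ. Both passed the limit on UMIs over both groups through the esophagus and could not be called higher. *Krt6b*, *Krt16* and *Krt17*, with 20 to 53 UMIs in the esophagus, could not be called lower. The opposite directions are therefore a description only.

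*Krt6a* was detected in every squamous group and had its highest level in the second label of the pup. It was at 107, 605, 193 and 92.2 CPM in the esophagus at E15, E19, pup and adult, at 248, 453, 246 and 383 CPM in the GE-SCJ, and at 1362 CPM (1249.9 to 1481) in the second label. In the order of these levels, 3 pairs of neighbours had a log2 ratio whose counting interval held 0, namely the E15 and the pup GE-SCJ, the pup GE-SCJ and the pup esophagus, and the E15 and the adult esophagus. Other cell classes reached 76.0 CPM, so the adult esophagus at 92.2 CPM (82.0 to 103) was just above them.

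*Krt6b*, its near copy, had a much narrower pattern. It was at 491 CPM (456 to 527) in the adult GE-SCJ and at 0 to 23.4 CPM in the other 8 squamous groups, and 9 of the 11 UMIs of the next highest group, the E19 GE-SCJ, lay in 1 cell. In the adult GE-SCJ *Krt6a* made up 43.9% of the UMIs of both genes, but over 10 cells with at least 20 UMIs of the pair its share ran from 0.568% to 100%, so the copies were not counted in a fixed ratio from cell to cell. *Krt6b* was at most 3.82 CPM in other cell classes.

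*Krt16* likewise was highest in the adult GE-SCJ. It was at 8.14, 5.43, 0 and 13.7 CPM in the esophagus and at 2.21, 19.1, 38.1 and 181 CPM (161 to 204) in the GE-SCJ at E15, E19, pup and adult. The pup over the E19 GE-SCJ had a log2 ratio of 0.90 (-0.20 to 2.12), an interval that holds 0. Without the cell with the most *Krt16* UMIs the pup GE-SCJ was at 22.4 CPM. In the pup esophagus, where no UMI was counted in either label, 3 counts would be 5.25 CPM in the first and 7.47 CPM in the second. In 7 of 67 adult GE-SCJ cells thinned to 5000 UMIs *Krt16* and *Krt6b* were seen together, and in no other squamous group was such a cell seen.

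*Krt17* was abundant before birth in the esophagus and after birth in the GE-SCJ. From E15 to adult the 4 stages of the esophagus had 437 (396 to 480), 384, 186 and 16.5 (12.4 to 21.6) CPM, and those of the GE-SCJ 104, 19.1, 270.1 and 369 CPM. In the order of levels the E19 esophagus and the adult GE-SCJ had a log2 ratio of 0.056 (-0.11 to 0.22), an interval that holds 0, whereas that of the E15 over the E19 esophagus (0.19, 0.0074 to 0.37) lay just above 0. In the pup GE-SCJ 1 cell held 53.1% of the UMIs. Of esophageal cells thinned to 5000 UMIs, 41 of 58 had a *Krt17* UMI at E15 and 63 of 100 at E19, against 15 of 171 in the adult.

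A small set of cells carried the 4 keratins of this group in the adult GE-SCJ. There 14 of 86 cells had at least 20 UMIs of *Krt6a*, *Krt6b*, *Krt16* and *Krt17* together and held 88.6% of them. Of these, 8 reached 20 UMIs of *Krt6a*, 6 of *Krt17*, 5 of *Krt6b* and 3 of *Krt16*. The mucosal pair was in 11 of the 14, against 52.3% of all 86 cells, and the epidermal pair in 4, against 30.2%. At E19 the esophagus had 28 such cells of 120, which held 60.5% of the UMIs, and 23 of them had the mucosal pair, against 57.5% of all 120. The adult esophagus had 4 of 232. These cutoffs were set on counts that were not thinned, so deeper cells reach them more easily. The part of depth in these shares was not tested.

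The second squamous label of the pup esophagus had the mucosal pair together with *Krt6a* and little else of the 8. *Krt13* was at 6915 CPM (6660 to 7177), *Krt6a* at 1362 CPM and *Krt4* at 1302 CPM, while *Krt6b* was at 12.4 CPM, *Krt10* at 4.98 CPM, *Krt17* at 2.49 CPM from 1 UMI, and *Krt1* and *Krt16* at 0. Against the first label of the same tissue, *Krt6a* (log2 2.81) and *Krt13* (2.25) were higher, 2 of 4 members with enough UMIs against 26.7% of 1046 genes, *Krt4* was at 0.57 (1.57 without the cell with the most UMIs in each label), and 1 of the 4, *Krt17*, was lower (-5.23, -8.30 to -3.35), against 46.8% of genes lower by at least 2-fold. *Krt17* reached 100 UMIs through the first label and could not be called higher. The labels were made by clustering these genes, so these values describe the clusters.

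The other keratins of this label also differed from the first, where the median log2 ratio over all genes was -0.82. *Krt7* was at 5491 against 96.3 CPM, *Krt23* at 2188 against 3.50 CPM and *Krt19* at 2823 against 347 CPM. *Krt80* was at 436 against 3.50 CPM. All 4 measured simple keratins were higher. Of these, *Krt23*, *Krt18* and *Krt7* had 2, 36 and 55 UMIs in the first label, where *Krt80* had 2. *Krt80* and these simple keratins passed the limit on UMIs over both groups through the second label. They could not be called lower, so the count of simple keratins is a description only. *Krt14* was at 2.49 against 406 CPM, *Krt5* at 12.4 against 732 CPM and *Krt15* at 1449 against 2887 CPM. *Cnfn* was at 13517 against 33.3 CPM and *Sprr2d* at 650 CPM against 0 UMIs, where 3 counts would be 5.25 CPM. Of 7 regulators *Hopx* (3221 against 64.8 CPM) and *Elf3* were higher and *Trp63* (0 against 333 CPM) and *Klf4* lower. Of 6 desmosomal and adaptor genes *Ppl* and *Evpl* were higher and *Dsg3* (0 against 221 CPM), *Pkp1* and *Dsp* lower. Of all 1046 genes 26.7% were higher and 46.8% lower, so the counts of regulators and desmosomal genes are not read as a feature of this label. Of 4 mesothelial markers only *Msln* was high over the 40 cells of this label, at 881 CPM, with *Upk3b* at 5.40 CPM and *Wt1* and *Lrrn4* at 0. The part of *Msln* in the differences from the first label was not tested.

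The composition of the keratin message summarises these patterns, and since the method counts 1 molecule per 3′ end, the shares of UMIs do not depend on transcript length. *Krt4* and *Krt13* made up 82.1%, 92.7%, 85.3% and 99.6% of the UMIs of the 8 genes in the esophagus at E15, E19, pup and adult, and 87.8%, 93.7%, 64.6% and 83.1% in the GE-SCJ. *Krt1* and *Krt10* were 25.7% (24.3% to 27.2%) in the pup GE-SCJ, 12.6% (12.4% to 12.9%) in the adult GE-SCJ and 0.118% in the adult esophagus. The other 4 genes were 15.4% in the E15 esophagus, 14.3% in the second label and 0.277% in the adult esophagus. Relative to all UMIs, the 8 genes were 0.273% to 1.44% before adulthood in the esophagus and 4.64% in the adult, and 3.35% in the adult GE-SCJ.

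**Figure D4:**
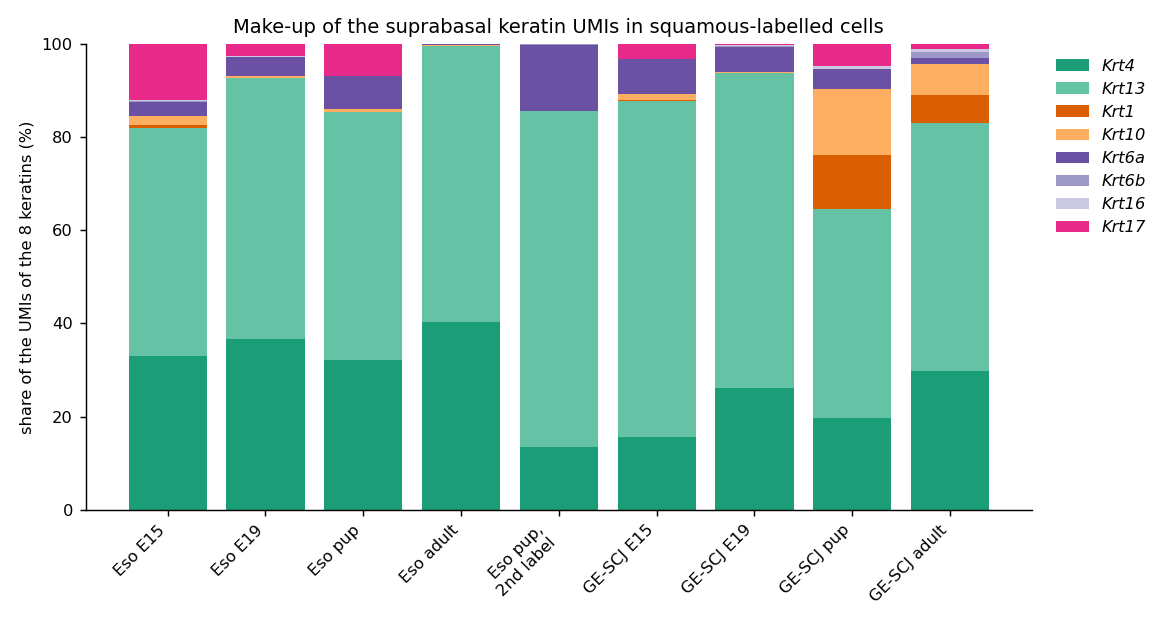
Share of the UMIs of the 8 keratins (percent, bars from 0) that came from each gene in each squamous group of at least 20 cells. *Krt4* and *Krt13* fill 99.6% of the adult esophageal bar, and *Krt1* and *Krt10* take 25.7% of the pup and 12.6% of the adult GE-SCJ bar.

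The balance within the mucosal pair was measured over all cells of a group and cell by cell. *Krt4* made up 40.3%, 39.6%, 37.6% and 40.5% of *Krt4* and *Krt13* UMIs at E15, E19, pup and adult, with overlapping intervals between E15 and E19 and between E19 and pup, but not between pup (35.0% to 40.2%) and adult (40.3% to 40.8%). In the pup 1 cell held 56.4% of the *Krt4* UMIs. Over single cells with at least 20 UMIs of the pair the median share spread further, at 45.2% (15 cells), 40.7% (69 cells), 31.5% (10 cells) and 35.0% (141 cells). In the GE-SCJ the share was 17.7% (16.3% to 19.2%), 28.0%, 30.5% and 35.8% (35.4% to 36.3%), and in the second label of the pup 15.8%. *Krt13* had more UMIs than *Krt4* in each of these groups, and within the first label the *Krt4* share of summed UMIs was lower in the GE-SCJ than in the esophagus of the same stage. The single-cell medians in the GE-SCJ were 16.9% (14 cells), 26.9% (21 cells), 18.7% (10 cells) and 34.6% (45 cells) from E15 to adult. By this measure the adult regions were nearly level, at 34.6% and 35.0%.

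Within single cells the mucosal pair was found together in most adult esophageal cells that had at least 5000 UMIs. At 5000 UMIs a cell, both genes were seen in 144 of 171 adult esophageal cells (84.2%, 77.9% to 89.3%), in 26 of 58 at E15, 76 of 100 at E19 and 25 of 47 in the pup, and in 25 of 28 cells (89.3%, 71.8% to 97.7%) of the second label. In the GE-SCJ the shares of cells with both were 37.8%, 76.9%, 31.7% and 67.2% at E15, E19, pup and adult. Counted singly, *Krt13* was seen in 169 and *Krt4* in 145 of the 171 adult esophageal cells, and in 28 and 25 of the 28 cells of the second label. With *Krt13* in nearly all cells, the joint share there is close to that of *Krt4* alone. Stromal cells (5.48%) and immune cells (5.14%), which should lack both, give the level that free RNA could leave. *Krt6a* and *Krt17* were seen together in 27.0% of E19 and 2.92% of adult esophageal cells. At E19 *Krt6a* was seen in 55 and *Krt17* in 63 of 100 cells. Of these cells, 28 had *Krt6a* without *Krt17* and 36 had *Krt17* without *Krt6a*.

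Across cells of 1 group the correlation of log levels at 5000 UMIs describes which members shared cells, and depth was the same for all cells compared. Pearson's r of *Krt4* and *Krt13* was 0.907 over 171 adult esophageal cells, 0.872 over 100 cells at E19 and 0.883 over 67 adult GE-SCJ cells, but 0.468 over 47 cells of the pup esophagus and 0.714 over 41 cells of the pup GE-SCJ. *Krt4* and basal *Krt5* had r of -0.878 in the adult esophagus and -0.798 in the adult GE-SCJ, against -0.191 and -0.0772 in the pup. *Krt1* and *Krt10* had r of 0.770 in the adult GE-SCJ, where *Krt6a* and *Krt6b* had 0.568, *Krt6b* and *Krt16* 0.548, and *Krt17* and *Krt14* 0.564. The other basal keratins were divided there, as *Krt17* had r of 0.416 with *Krt5* and -0.122 with *Krt15*. *Krt17* also had r of 0.421 with *Krt16* and 0.408 with *Krt6a*, and -0.461 with *Krt4*. In the E19 esophagus *Krt17* had r of -0.526 with *Krt4*, -0.579 with *Krt13* and -0.396 with *Krt6a*. With the basal keratins it had r of 0.364 (*Krt5*), 0.351 (*Krt14*) and -0.156 (*Krt15*) there. *Krt4* and *Krt15* had r of 0.438 at E19 and -0.680 in the adult esophagus.

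When adult esophageal cells were put into 4 bins of near equal size by the suprabasal share of their keratin UMIs, the members followed an order, which again describes cells sorted by the members themselves. *Krt4* was at 205, 511, 10593 and 35712 CPM from the lowest to the highest bin of 57 or 58 cells. *Krt6a* was highest in the third bin, at 253 CPM, and at 9.72 CPM in the fourth, and *Krt17* was at 51.1 CPM in the second and 2.08 CPM in the fourth. The proliferation gene *Mki67* was at 350 CPM in the lowest and 2.08 CPM in the highest bin. Median depth was 7269 UMIs in the lowest and 25762 UMIs in the highest.

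In the adult GE-SCJ, with 21 or 22 cells a bin, the keratins of wounded epithelium had their highest levels at different places. *Krt17* was highest in the second bin, at 1230.4 CPM, against 163 CPM in the fourth, and *Krt16* also in the second, at 424 CPM. *Krt6a* was highest in the third bin, at 810.2 CPM, and *Krt6b* was at 725 CPM in the third and 674 CPM in the fourth. *Krt1* was at 33.9, 510 and 1314 CPM in the first 3 bins and 3537 CPM in the fourth. The share of cells called in S or G2/M phase was 77.3%, 33.3% and 4.76% in the first 3 bins, from calls in the authors' annotation.

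Over all 55 cell groups of at least 20 cells and 14758 genes, each member was compared with every gene by Pearson's r of log2(CPM + 10), a description over groups that share 1 library. The gene most like *Krt4* was *Krt13* (r 0.985), followed by *Duoxa1* (0.952) and *S100a14* (0.939), and *Krt13* had *Krt4*, *Duoxa1* and *S100a14* (0.957) in turn. *Krt1* was most like *Krt10* (0.884), then *Krt16* and *Gpnmb*. *Krt6a* was most like *Tmprss11b* (0.929), *Krt6b* like *Ces1f* (0.937), *Krt16* like *Hoxc8* (0.858) and *Krt17* like *Eppk1* (0.825). Over the 9 squamous groups alone, *Krt1* and *Krt10* had r of 0.989, *Krt4* and *Krt13* 0.916, and *Krt13* and *Krt17* -0.354. In these groups *Krt4* and *Krt13* were not most like each other. *Krt4* was most like *Tmprss11d* (0.976) and *Krt13* like *S100a14* (0.984).

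*Krt17* was also found outside the epithelium. In smooth muscle of the stomach 52 of 111 cells of E15 and 75 of 160 cells of E19 had a UMI, for 75.6 CPM (62.9 to 90.1) and 98.9 CPM (85.4 to 114). In smooth muscle of the GE-SCJ it was at 43.9 CPM and 47.6 CPM, and in that of the esophagus at 11.5 CPM and 4.32 CPM. After birth it was at 7.17 CPM in the stomach and 3.51 CPM in the GE-SCJ of the pup and at 0 in the adult GE-SCJ, over 16 cells. Stromal cells of the same tissues at E15 and E19 were at 0.524 to 1.86 CPM, and *Krt5* and *Krt14* in E19 stomach smooth muscle were at 4.14 and 2.59 CPM. In the GE-SCJ squamous keratins were found beside it, with *Krt5* at 21.9 and *Krt14* at 16.2 CPM in E15 smooth muscle and *Krt15* at 50.05 CPM in that of E19, and their part in the GE-SCJ values was not tested. Median depth in the E19 stomach was 11412 UMIs in smooth muscle and 9025 UMIs in stromal cells.

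**Figure D5:**
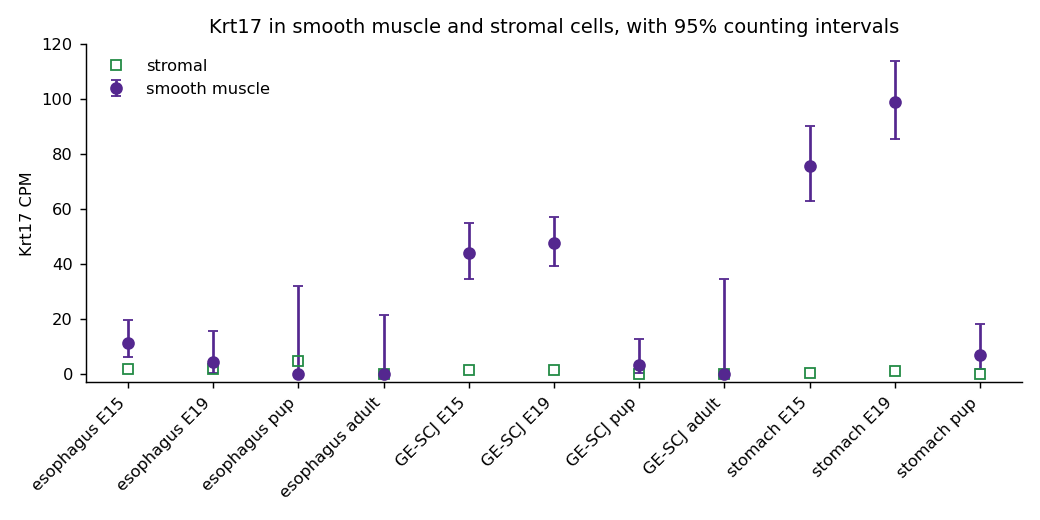
*Krt17* level in CPM in smooth muscle and in stromal cells by region and stage (1 pooled sample a point), with 95% Poisson intervals for smooth muscle. Smooth muscle stands above stromal cells at E15 and E19 in the GE-SCJ and stomach, with 98.9 CPM in the E19 stomach against at most 1.86 CPM in stromal cells of those stages, while the E19 esophagus rests on 2 UMIs (0.524 to 15.6 CPM).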

How the data were processed

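Cells of all tissues and stages were sequenced as 1 library of transcripts and 1 of tags with the 10x 3′ kit. The authors counted UMIs per gene and cell with Cell Ranger (6.1.1) on mm10, left out cells by genes, UMIs and percent of mitochondrial UMIs, removed 2 subgroups of poor cells and gave each cell a class. The deposited values used here are these raw counts, with the authors' percent of mitochondrial UMIs and phase calls. The gene and UMI limits were the authors' screen for doublets, and none was added. Counts were summed by class, region and stage and divided by all UMIs of the group (CPM), with exact 95% Poisson and Clopper-Pearson intervals from scipy (1.17.1), which cover counting error only. With 1 pooled sample a group no test was run. Ratios added 1 UMI to each sum, for genes with at least 100 UMIs in the 2 groups together. A member or other listed gene with few UMIs in 1 group passed this limit through the other, which set the direction of its call. Tested alternatives are given at the end. Members and gene lists were chosen with earlier results of these data known. At most 4 genes a list were named, by the size of their ratio. Only 2 of 8 promoters were used here.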

Additional observations from a re-analysis of the deposited data

Results flagged for a closer look

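*Krt17* moved in opposite directions in the 2 regions. Its log2 ratio of adult over E19 was -4.51 in the esophagus and 4.12 in the GE-SCJ, and that of pup over E19 was -1.04 and 3.67. With 1 pooled sample a group the difference between regions was not tested. The E19 GE-SCJ value rests on 9 UMIs in 30 cells.

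*Krt17* was also seen outside the squamous cells, in smooth muscle, above the level of stromal cells, at 43.9 CPM (E15) and 47.6 CPM (E19) in the GE-SCJ and at 75.6 CPM (E15) and 98.9 CPM (E19) in the stomach.

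In immune-labelled cells of the E19 stomach *Krt1* was at 54.5 CPM and *Krt10* at 132 CPM over 76 cells, the highest of the 46 groups outside the squamous labels. A single cell of these, with 60963 UMIs, held 127 *Krt10* UMIs, and without it the levels were 2.07 and 9.32 CPM. That cell had 60 *Krt5* UMIs and 5 of the immune marker *Ptprc*.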

How the results depend on the processing

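The count of members higher in the adult than the E19 GE-SCJ stayed at 6 or 7 over the alternatives, and that of the second over the first pup label at 2 or 3. For the adult over the E19 esophagus, the 2 members became 1 (*Krt13*) when the CPM of single cells were averaged and 0 at a 4-fold threshold. The share of *Krt4* and *Krt13* in the adult esophagus (99.6%) was 99.0% with averaged CPM and 99.5% with the top 1% of cells by UMIs of the 8 genes left out. The share of *Krt1* and *Krt10* in the adult GE-SCJ (12.6%) was 13.6% and 13.8% under these 2 settings, 12.1% after a filter at 1000 UMIs and 10% mitochondrial UMIs, and 13.5% without cells whose neighbours lay across birth. Both *Krt4* and *Krt13* were seen in 65.4% of adult esophageal cells at 2000 UMIs and in 74.3% with 2 UMIs of each required. The cause was not tested. Joining both squamous labels, added after the data were seen, left the counts at 2 and 7, but turned the log2 ratio of *Krt6a* in the pup over the E19 esophagus from -1.64 to 0.037, since the second label, rich in *Krt6a*, was then included. Of 47 levels of at least 20 CPM, 14 moved by over 1.5-fold with the top 1% of cells by that gene's UMIs left out, 11 with averaged CPM, 11 with the smaller library size, and 1 under the depth filter. The log2 ratios of single members under these settings were also computed after the data were seen.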

Other observations

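Squamous-labelled cells of the stomach were too few for the comparisons. The 7 such cells of the pup stomach had *Krt4* at 9026 CPM, *Krt13* at 10728 CPM, *Krt1* at 603 CPM and *Krt10* at 374 CPM, from 82871 UMIs in all.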
